A study of Mus musculus with 18 samples.

Results

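A group of 9 lymphocyte marker genes were followed in adipose RNA-seq libraries of mice on a fat-rich diet. They were the chains of CD3 (Cd3d, Cd3e, Cd3g), the coreceptors Cd4, Cd8a and Cd8b1, the B cell receptor partners Cd79a and Cd79b, and Nkg7. They were found by symbol among 52093 symbols, each with a single row in the files. The libraries came from male wild type C57BL/6 mice, by the study's note 16 weeks old, after 12 weeks of high-fat feeding (HFD). Inguinal (iWAT) and epididymal (eWAT) white adipocytes were the floating mature cells after collagenase digestion, whereas brown adipose tissue (BAT) was frozen whole tissue, with 6 libraries for each. The protocol in the labels names C57BL/6J mice, and the study's supplementary note C57BL/6NTac mice. One label field gives regular chow, against the titles and the design text, and the libraries were taken as HFD. No library came from mice on another diet or of another genotype, so the comparisons below are between depots. Cell preparation and depot cannot be told apart where BAT is compared, and the same holds for sequencing lane.

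T cells recognise antigen through a receptor that signals through the CD3 chains. CD4 and CD8, the latter a dimer of CD8A and CD8B, bind the presenting molecule and divide T cells into helper and cytotoxic classes. B cells signal through CD79A and CD79B, which pair beside the surface immunoglobulin. Nkg7 encodes a granule protein of natural killer cells and cytotoxic T cells. Adipose tissue holds resident lymphocytes and many macrophages, and in obesity epididymal fat is known for its macrophages. In bulk RNA, fewer cells of a type and less RNA per cell cannot be told apart.

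Promoters are shown for the CD3 chains, neighbours in the genome whose reads were added up below, and beside them for Cd79a of the B cell receptor. In the files' mm9 build the 3 CD3 genes lie together on chromosome 9. Cd3g (chr9:44777655-44788514, minus strand) and Cd3d (chr9:44789869-44795422, plus strand) point away from each other, with 1355 bases between their starts. Cd3e (chr9:44806826-44817675, minus strand) follows. Cd8b1 (chr6:71272782-71289756) and Cd8a (chr6:71323421-71329165) are plus-strand neighbours on chromosome 6, which also holds Cd4 (chr6:124814710-124838239, minus strand). Cd79a (chr7:25682400-25687216) and Nkg7 (chr7:50692443-50693616) lie on the plus strand of chromosome 7, and Cd79b (chr11:106172655-106176076) on the minus strand of chromosome 11. RefSeq (GRCm38.p6, another build than that of the files) gave a promoter for 6 of the 9 members and none for Cd4, Cd8b1 and Cd79b. The 250 bases before the start are printed with each GGAA or its reverse complement, the core read by Ets factors, in capitals.
Cd3g (chr9:44980432-44980681, minus strand): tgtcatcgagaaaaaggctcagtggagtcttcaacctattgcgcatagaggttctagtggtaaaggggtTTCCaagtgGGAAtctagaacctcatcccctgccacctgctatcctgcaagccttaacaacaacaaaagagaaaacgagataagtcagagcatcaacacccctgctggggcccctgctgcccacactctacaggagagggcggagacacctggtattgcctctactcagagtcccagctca
Cd3d (chr9:44981536-44981785, plus strand): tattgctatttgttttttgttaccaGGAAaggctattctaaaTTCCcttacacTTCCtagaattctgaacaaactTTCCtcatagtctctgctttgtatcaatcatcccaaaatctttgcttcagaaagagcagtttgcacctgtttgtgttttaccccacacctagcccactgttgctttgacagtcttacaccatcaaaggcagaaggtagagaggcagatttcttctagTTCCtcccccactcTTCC
Cd3e (chr9:45009612-45009861, minus strand): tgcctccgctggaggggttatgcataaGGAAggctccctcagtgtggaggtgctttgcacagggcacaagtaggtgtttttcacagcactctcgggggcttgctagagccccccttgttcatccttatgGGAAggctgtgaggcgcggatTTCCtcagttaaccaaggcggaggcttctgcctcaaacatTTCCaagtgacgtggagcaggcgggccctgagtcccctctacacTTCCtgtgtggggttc
Cd79a (chr7:24897247-24897496, plus strand): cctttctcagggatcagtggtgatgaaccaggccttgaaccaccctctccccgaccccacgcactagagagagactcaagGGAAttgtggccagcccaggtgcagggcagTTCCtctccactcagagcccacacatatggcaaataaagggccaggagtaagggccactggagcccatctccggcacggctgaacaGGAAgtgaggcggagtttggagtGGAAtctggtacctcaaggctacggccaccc
The window held 2 such matches for Cd3g, 6 for Cd3d, 5 for Cd3e, 4 for Cd79a, 6 for Cd8a and 4 for Nkg7. Of all 32851 promoters of that length, 93.4% held at least 1, with a median of 3. The octamer ATTTGCAT (1.6% of all promoters), the EBF letters TCCCNNGGGA (0.779%) and TATAAA (12.4%) were in none of the 6 windows. The Runx letters TGTGGT (14.0%) were in that of Nkg7 alone. Both strands were searched and matches of different motifs could overlap. These counts describe the letters in the windows and carry no statement on binding.

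All 9 members were rare transcripts. They took 490 reads in all iWAT libraries together, 450 in eWAT and 361 in BAT, in libraries of 24655056 to 42518483 reads. A gene with at most 3 reads in a library was taken to be at the limit of this depth. By that limit Cd3d, Cd3e, Cd3g, Cd8a, Cd8b1 and Nkg7 were not detectable above 3 reads in any eWAT library, nor was Cd3d in any BAT library. The labelled tissues held their defining markers. Adipoq, the adipocyte hormone adiponectin, had a mean of 1127 ± 166 RPKM in iWAT, 387 ± 178 in eWAT and 221 ± 29.5 in BAT (SD, n = 6 each). Ucp1, the uncoupling protein of brown fat, was at 2.26 ± 0.591, 0.261 ± 0.0844 and 1858 ± 237 RPKM. The isolated adipocyte libraries also held leukocyte RNA, and much more of it in eWAT. Ptprc, which encodes the leukocyte surface protein CD45, was at 3.91 ± 0.930 RPKM in iWAT, 18.4 ± 3.52 in eWAT and 0.337 ± 0.0749 in BAT. The summed level of the 8 macrophage markers ranged from 172 to 328 RPKM in iWAT, from 867 to 1308 in eWAT and from 6.41 to 12.8 in BAT. RPKM is the read count per length of transcript and per depth of the library, so that levels of different genes may be compared. The rows of Ptprc and Adipoq each overlap another row of the table.

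**Figure D1:**
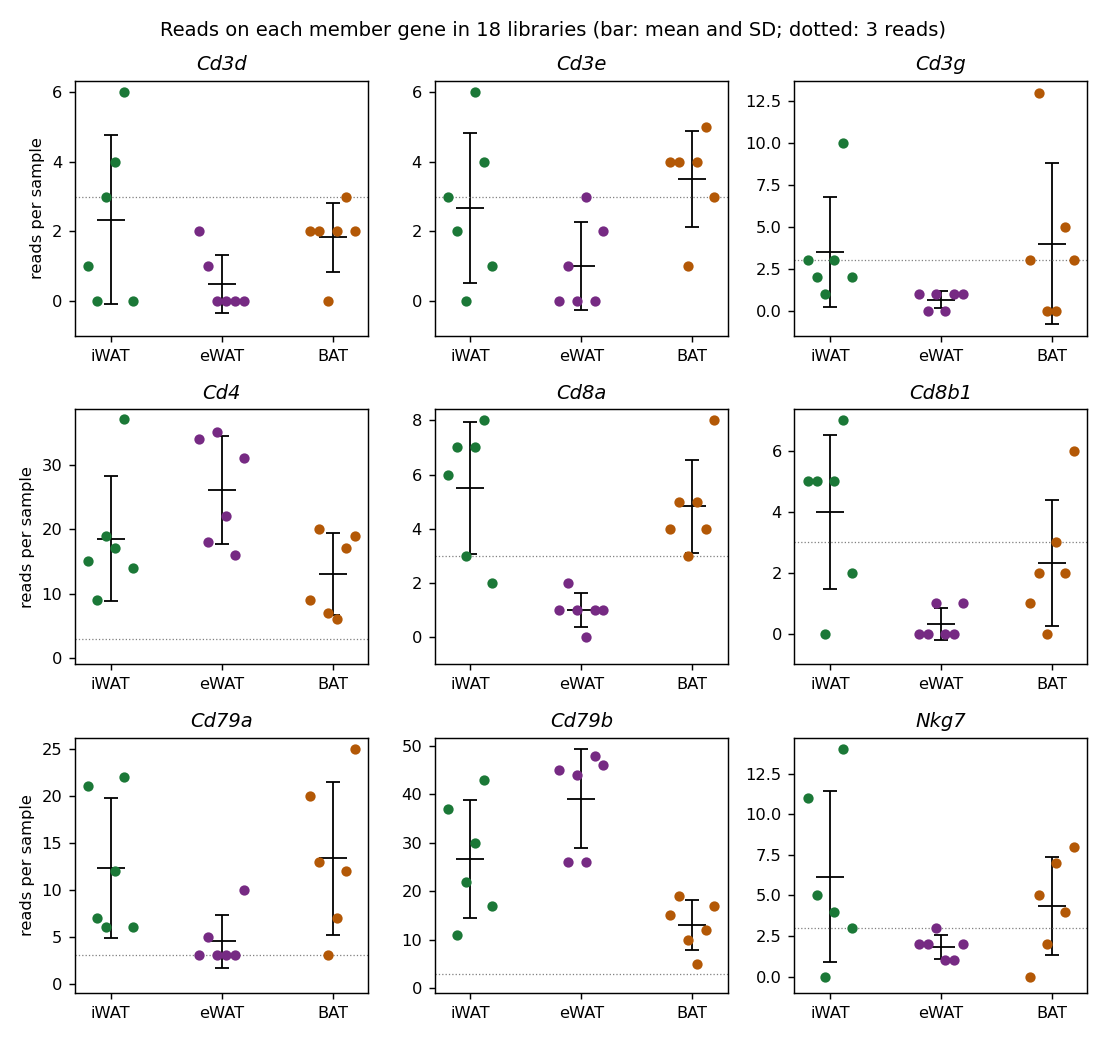
Reads on each of the 9 genes (vertical axis, linear, its own range per panel) in the 6 libraries of iWAT adipocytes, eWAT adipocytes and BAT, 1 point per library, with the mean and SD as bars and a dotted line at 3 reads. For Cd3d, Cd3e, Cd3g, Cd8a, Cd8b1 and Nkg7 every eWAT point lies at or below the line, whereas the mean reads of Cd4 and Cd79b are highest in eWAT.

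Per length, Cd79b was the highest member in each tissue, at 0.618 ± 0.280 RPKM in iWAT, 0.851 ± 0.227 in eWAT and 0.281 ± 0.0754 in BAT. In BAT its partner Cd79a stood at 0.279 ± 0.152 RPKM, within the spread, and in iWAT at 0.283 ± 0.170. In eWAT Cd79a was at 0.0954 ± 0.0561 RPKM. Nkg7 came next in iWAT and BAT (0.236 ± 0.200 and 0.164 ± 0.125 RPKM), followed by Cd4 (0.152 ± 0.0783 and 0.0982 ± 0.0339). In eWAT Cd4 was second, at 0.200 ± 0.0607 RPKM. The CD3 and CD8 chains lay below 0.1 RPKM in each tissue, from Cd8b1 (0.0906 ± 0.0576) to Cd3e (0.0264 ± 0.0207) in iWAT. Neighbours in these orders differed by less than the larger of their SDs, except Cd79b and Cd79a in iWAT, Cd79b and Cd4, Cd4 and Cd79a, and Nkg7 and Cd3e in eWAT, and Cd4 and Cd8b1 in BAT.

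The CD3 chains carry the signal of the T cell receptor. Reads on the CD3 chains were fewest in eWAT, although that depot held the most CD45 RNA. Cd3d (lowest, median and highest reads 0, 2 and 6 in iWAT) had 0, 0 and 2 in eWAT and 0, 2 and 3 in BAT. Cd3e had 0, 2.5 and 6 reads in iWAT, 0, 0.5 and 3 in eWAT, and 1, 4 and 5 in BAT. Cd3g had 1, 2.5 and 10 reads in iWAT, 0, 1 and 1 in eWAT, and 0, 3 and 13 in BAT. The ranges of all 3 genes overlapped between tissues. Added up, they gave 51 reads in the 6 iWAT libraries, 13 in eWAT and 56 in BAT. At the normalised depth that was 4.23 times as much in iWAT as in eWAT (95% counting interval 2.27 to 8.47), and in eWAT 0.148 of the level in BAT (0.0742 to 0.274). These intervals are exact and cover counting error only, not the spread between mice.

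CD3 reads were also set against CD45 reads of the same library, a value that needs no scaling between tissues. There were 3.93 ± 2.44 CD3 reads per 1000 Ptprc reads in iWAT, 0.220 ± 0.128 in eWAT and 48.2 ± 24.6 in BAT (SD, n = 6). The white depots did not overlap, with 1.49 to 7.73 in iWAT against 0.0826 to 0.431 in eWAT. BAT spanned 6.94 to 73.1, and its lowest library (sample 5, with 1 CD3 read) lay below the highest iWAT library. Without iWAT samples 1 and 5, described below, the iWAT mean was 3.05 ± 2.00 (n = 4). For the CD8 chains (Cd8a and Cd8b1) the ratio was 4.97 ± 2.94, 0.124 ± 0.0808 and 41.2 ± 25.5, and for the CD79 chains it was 18.7 ± 7.76, 4.30 ± 1.29 and 139 ± 49.2. Ptprc, the shared denominator, had 12415 reads in iWAT, 63719 in eWAT and 1143 in BAT, against 51, 13 and 56 on the CD3 chains. Much of the order of the CD3 ratio therefore comes from Ptprc, and its gap between iWAT and BAT nearly all. The CD8 and CD79 ratios use the same denominator and are not separate evidence. No test was applied to these sums.

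**Figure D2:**
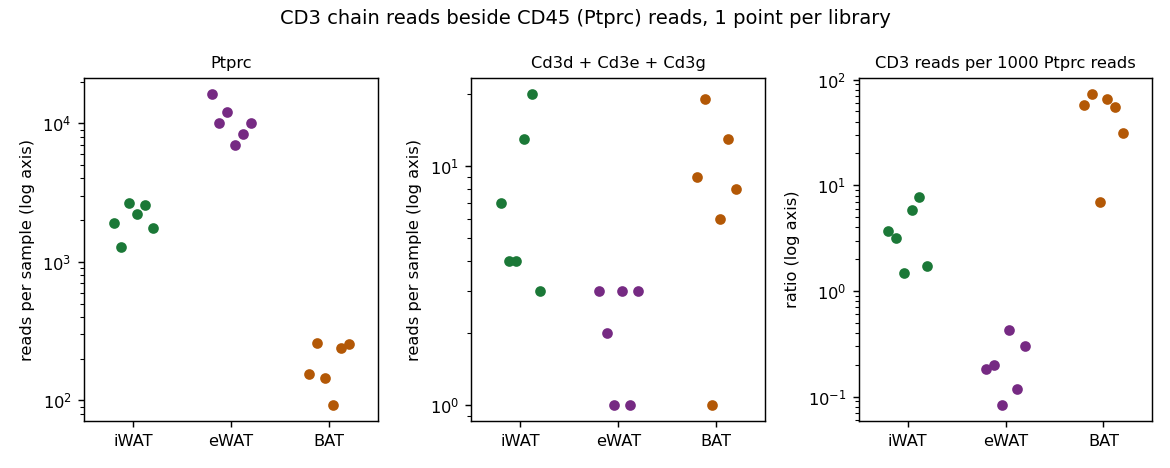
Reads on Ptprc, summed reads on Cd3d, Cd3e and Cd3g, and CD3 reads per 1000 Ptprc reads (log axes), 1 point per library. Ptprc reads are highest in eWAT (6953 to 16292) and lowest in BAT (92 to 260). The ratio has these reads as its denominator and so runs largely the other way, from 0.0826 in an eWAT library to 73.1 in a BAT library.

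Among the coreceptors, Cd4 was not distributed like the CD3 chains. It had 9, 16 and 37 reads (lowest, median and highest) in iWAT, 16, 26.5 and 35 in eWAT and 6, 13 and 20 in BAT. All 3 ranges overlapped. Cd8a had 2, 6.5 and 8 reads in iWAT, 0, 1 and 2 in eWAT and 3, 4.5 and 8 in BAT, so that every eWAT library lay below every BAT library. Cd8b1 had 0, 5 and 7 reads in iWAT, 0, 0 and 1 in eWAT and 0, 2 and 6 in BAT. Over the 6 libraries there were 111 reads on Cd4 and 33 on Cd8a in iWAT, 156 and 6 in eWAT, and 78 and 29 in BAT. The log2 ratio of Cd4 to Cd8a (RPKM + 0.1) was 0.71 ± 0.40 in iWAT, 1.44 ± 0.33 in eWAT and 0.46 ± 0.27 in BAT. It was lower in iWAT than in eWAT by 0.74 (exact permutation test, two-sided, p = 0.0108, 0.0162 after Benjamini-Hochberg adjustment over 3 comparisons). It was higher in eWAT than in BAT by 0.99, without overlap (exact permutation p = 0.00216, adjusted 0.00649). That p is the smallest the design allows. Cd8a in eWAT lay far below the added 0.1 RPKM, so that the size of these differences depends on it. With 0.01 RPKM added they were -2.11 (without overlap) and 2.51. For iWAT against BAT the difference was 0.25 (exact permutation p = 0.221, adjusted 0.221). Within sequencing lane 1 the difference of iWAT from eWAT was -0.62 (2 against 4 libraries), and within lane 2 it was -0.88 (4 against 2).

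The B cell receptor partners Cd79a and Cd79b, whose proteins pair, differed in their order of tissues. Cd79a had 6, 9.5 and 22 reads in iWAT, 3, 3 and 10 in eWAT and 3, 12.5 and 25 in BAT. Cd79b had 11, 26 and 43 reads in iWAT, 26, 44.5 and 48 in eWAT and 5, 13.5 and 19 in BAT. Every eWAT library held more Cd79b reads than any BAT library. Reads on Cd79b and Cd79a came to 235 and 27 in eWAT, 160 and 74 in iWAT, and 78 and 80 in BAT. The log2 ratio of Cd79b to Cd79a (RPKM + 0.1), a comparison added after the data were seen, was 2.29 ± 0.50 in eWAT, 0.93 ± 0.31 in iWAT and 0.08 ± 0.57 in BAT. Both other tissues lay below eWAT without overlap (iWAT minus eWAT -1.36, eWAT minus BAT 2.21, each with exact permutation p = 0.00216 and adjusted p = 0.00325). The difference of 0.85 between iWAT and BAT had an exact permutation p of 0.0152 (adjusted 0.0152). The ratio was picked on the values tested, so these p-values give no independent support. Cd79a in eWAT (mean 0.0954 RPKM) lay near the added 0.1 RPKM, so that the size of the differences depends on it. With 0.01 RPKM added they were -1.94 for iWAT minus eWAT, 2.97 for eWAT minus BAT and 1.03 for iWAT minus BAT. The difference of iWAT from eWAT was -1.31 within lane 1 and -1.29 within lane 2.

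**Figure D3:**
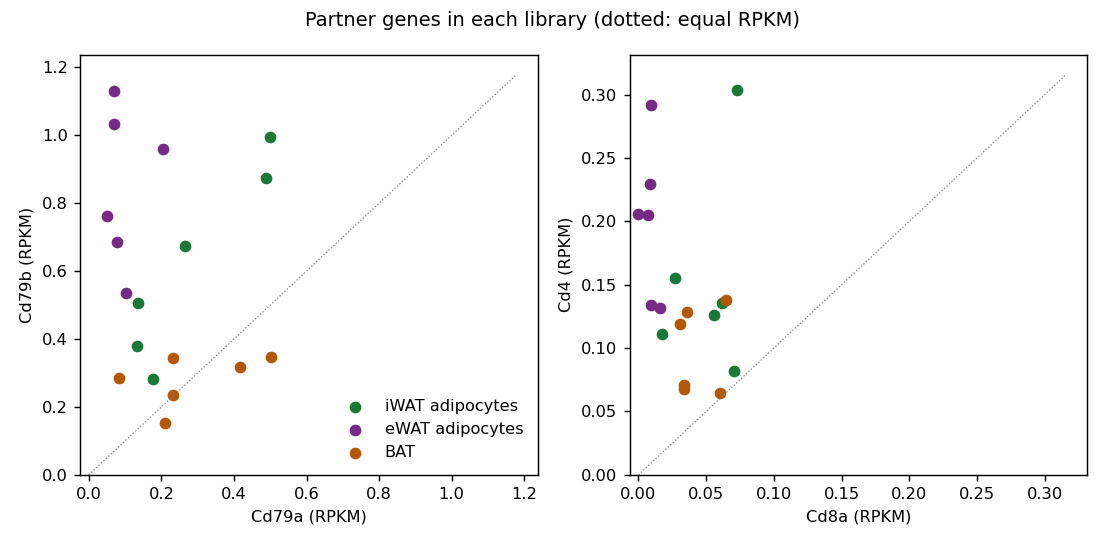
Levels of Cd79b against Cd79a (left) and of Cd4 against Cd8a (right) in RPKM, 1 point per library, with a dotted line where both are equal. The eWAT libraries lie at the left edge of the right panel and, except for sample 16 at 0.205 RPKM of Cd79a, toward the left of the left panel, with means of 0.0954 ± 0.0561 RPKM of Cd79a and 0.851 ± 0.227 of Cd79b.

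Nkg7 had 0, 4.5 and 14 reads in iWAT, 1, 2 and 3 in eWAT and 0, 4.5 and 8 in BAT, with overlap between all tissues.

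Inguinal and epididymal adipocytes were then compared gene by gene. Of the 9 members, Cd4 and Cd79b passed the filter of a mean of 10 reads. Neither differed by edgeR's quasi-likelihood test with Benjamini-Hochberg adjustment over all 19623 genes tested, of which 68.6% did. The log2 difference, iWAT over eWAT, was -0.46 ± 0.28 (SE) for Cd79b (adjusted p = 0.157) and -0.38 ± 0.29 for Cd4 (adjusted p = 0.255). At an unadjusted p under 0.05 the count was 0 as well, and DESeq2 also called 0. Among all 39134 genes with a read, without the filter, 36.9% were called by the same test. There 5 members were called, all higher in iWAT, namely Cd8a (adjusted p = 0.000956), Cd8b1 (0.00331), Cd79a (0.00805), Cd3g (0.0118) and Nkg7 (0.0278). Cd3d (0.0838) and Cd3e (0.188) were not, nor were Cd4 and Cd79b. Over the pooled libraries Cd8a was 5.92 times as high in iWAT (95% counting interval 2.45 to 17.3), Cd8b1 12.9 times (3.21 to 113), Cd79a 2.95 times (1.88 to 4.77), Cd3g 5.66 times (1.91 to 22.7) and Nkg7 3.62 times (1.81 to 7.88). Fitted differences of these genes rest on a few reads and are not printed. Within lane 1 Cd79a was the only member called, and within lane 2 Cd8b1 and Cd8a were. Without iWAT sample 5, Cd4 was called higher in eWAT in the filtered table (-0.68 ± 0.24, adjusted p = 0.0239). Among all genes with a read, Nkg7 was no longer called without iWAT sample 1 (adjusted p = 0.0701), iWAT sample 5 (0.0854), eWAT sample 1 (0.0527) or eWAT sample 5 (0.0503), and Cd3d was called without iWAT sample 2 (0.0490), iWAT sample 16 (0.0439) or eWAT sample 1 (0.0425).

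In iWAT the same library often held the most reads. By RPKM, sample 5 was the highest iWAT library for 8 of the 9 members, and for Cd3e it was second. The share of all genes that were highest in sample 5 was not computed, so the count is not a trait of the members. Sample 5 had the largest TMM factor of the iWAT libraries (1.31, others 1.14 to 1.26). With TMM scaling Cd8a was higher in sample 2 than in sample 5 (0.0647 and 0.0606). Cd79a was then nearly level in samples 5 and 1 (0.416 and 0.415). By RPKM, sample 1 was first or second for 4 members. Markers of other cells moved with them. The summed level of 3 blood vessel endothelial markers was 268 RPKM in sample 5 and 229 in sample 1, against 95.6 to 171 in the other 4 libraries. That of 3 red blood cell markers was 563 and 457, against 116 to 298. The lymph node stroma list (8 genes, of which 4 had at most 3 reads in every iWAT library) was at 1.84 and 1.51, against 0.56 to 0.857. Of its defining genes Ccl21a had 0 reads in every white library and Ccl19 at most 2, and both overlap other rows, so that their reads are uncertain. Cxcl13, Ltb and Madcam1 led the list at 0.492 ± 0.322, 0.359 ± 0.0980 and 0.0689 ± 0.0661 RPKM in iWAT, and Madcam1 overlaps another row. Adipoq was lowest in sample 5 (840 RPKM, others 1081 to 1297), and Ptprc was higher in sample 3 than in sample 5 (5.01 and 4.87 RPKM). The part of these cells in the members' levels was not tested. Without samples 1 and 5, with all genes with a read, Cd8a and Cd8b1 were still called higher in iWAT. Cd79a (adjusted p = 0.108), Cd3g (0.0963) and Nkg7 (0.326) were then not called. Cd79b was called higher in eWAT (log2 difference -0.78 ± 0.27, adjusted p = 0.0356). Samples 1 and 5 were the 2 highest iWAT libraries for Cd79a, Cd79b, Cd3g and Nkg7. Leaving them out lowers the iWAT levels of these genes by construction, so their changes of call do not test the difference between depots.

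Of the 3 comparisons, that of epididymal adipocytes with BAT held the largest number of members called. Cd79b was higher in eWAT by 0.99 ± 0.23 on the log2 scale (adjusted p = 0.000899), in a comparison where 82.5% of 20076 genes were called, and Cd4 did not pass (0.41 ± 0.26, adjusted p = 0.150). These were again the only members over the filter. Among all 39705 genes with a read, of which 55.5% were called, 8 of 9 members were. Cd79b was higher in eWAT, and Cd8a (adjusted p = 0.000156), Cd79a (0.000215), Cd3g (0.00381), Cd8b1 (0.00589), Cd3e (0.00804), Nkg7 (0.0186) and Cd3d (0.0253) were higher in BAT. Over the pooled libraries the level in eWAT was 0.132 of that in BAT for Cd8a (95% counting interval 0.0447 to 0.323), 0.215 for Cd79a (0.134 to 0.336) and 0.106 for Cd3g (0.0268 to 0.309). The direction did not depend on the scaling, but its size did. With total reads alone, which moved the median log2 difference of all genes from -0.08 to 0.70, 4 members (Cd8a, Cd8b1, Cd79a and Cd3g) were called higher in BAT, and Cd79b and Cd4 higher in eWAT. Without BAT sample 16, Nkg7 and Cd3d were not called, without BAT sample 18 Nkg7 was not and Cd4 was called higher in eWAT (adjusted p = 0.0499), and Cd3d was lost without eWAT sample 3, eWAT sample 16 or BAT sample 17. With total reads alone the pooled ratio of eWAT to BAT was 0.201 for Cd8a and 0.327 for Cd79a.

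In inguinal adipocytes against BAT, Cd4, Cd79a and Cd79b passed the filter and none was called, in a comparison where 75.3% of 19745 genes were. Cd79b differed by 0.51 ± 0.29 (adjusted p = 0.119), Cd79a by -0.62 ± 0.40 (0.172) and Cd4 by less than 0.01. The count was 0 at an unadjusted p under 0.05 and by DESeq2. Among all 39069 genes with a read, 49.8% were called and again none of the 9 members, with 1 (Cd79b) at an unadjusted p under 0.05. CD3 reads in iWAT were 0.62 of those in BAT (95% counting interval 0.419 to 0.930) at the normalised depth and 0.955 with total reads alone. Cd79b (log2 difference 1.36, adjusted p = 0.000711) and Cd4 (0.84, 0.0247) were called higher in iWAT with total reads alone, and Cd79a then turned positive. Leaving out iWAT sample 2 also led to a call of Cd79b (0.63, adjusted p = 0.0361). Leaving out samples 1 and 5 led to a call of Cd79a, higher in BAT (-1.23, adjusted p = 0.0142). Those were the 2 highest iWAT libraries for Cd79a, so that call does not test the difference between tissues.

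Few reads limited the question of which members varied together. With at least 10 reads in every library of a tissue, the pair of Cd4 and Cd79b in eWAT could be compared, and Cd79b between the white depots by sample number. Cd4 and Cd79b in eWAT had r = 0.347 (exact permutation p = 0.496, adjusted 0.496) and rho = 0.371 (exact permutation p = 0.497). Without the 2 libraries farthest from the median of Cd4, r was 0.862. Cd79b in iWAT and eWAT libraries of the same number had r = 0.461 (exact permutation p = 0.344, adjusted 0.496) and rho = 0.543 (exact permutation p = 0.297, adjusted 0.497), and r = -0.743 without 2 libraries. With members of at least 5 reads on average, chosen after the data were seen, there were 16 relations, and none passed after adjustment. The highest, both in iWAT, were Cd79a with Cd79b (r = 0.871, exact permutation p = 0.0403, adjusted 0.304, rho = 0.829) and Cd79a with Nkg7 (r = 0.871, exact permutation p = 0.0208, adjusted 0.304, rho = 0.886). Without the 2 libraries farthest from the median of Cd79a they were 0.536 and 0.521, so that both rest in part on those libraries.

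Of symbols with at least 10 reads on average in each tissue, those most alike to the summed CD3 reads over the 18 libraries, each centred on its tissue mean, were 1110038F14Rik (r = 0.872), Fam113b (0.855), Pim3 (0.841), AK134839 (0.841) and Tmem200b (0.837), of 17283 compared. For the summed Cd79 reads they included 9830001H06Rik (0.917), Plekhg2 (0.899), Mef2d (0.894) and AK147872 (0.891). None of these is a lymphocyte marker of the lists used here. This is a description over the 18 libraries, in which every gene of a library shares that library's depth, and the reads behind the CD3 sums were 1 to 20 per library.

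The list of 20 further genes of T cell receptor signalling gave mixed directions between the white depots. Among all genes with a read, 3 were called higher in iWAT and 8 higher in eWAT, with a median log2 difference of -0.11 beside 0.00 over all genes. These and the later list counts among all genes with a read stand beside the shares of such genes called in either direction. Those shares were 36.9% for iWAT against eWAT, 49.8% for iWAT against BAT and 55.5% for eWAT against BAT. List counts with the filter stand beside 68.6% for iWAT against eWAT and 82.5% for eWAT against BAT. With the filter, 15 genes of the list were tested, of which 2 were called higher in iWAT and 8 in eWAT (median -0.46). Against BAT, among all genes with a read, 10 were called higher in eWAT and 3 in BAT (median 0.73). For iWAT against BAT, 8 were called higher in iWAT and 1 in BAT (median 0.69). Its 3 highest genes were Ctla4, Il7r and Fyn. Il7r, the receptor chain for interleukin 7, was at 6.41 ± 1.58 RPKM in iWAT, 30.9 ± 4.63 in eWAT and 0.111 ± 0.0183 in BAT, the order of Ptprc. The rows of Ctla4 and Fyn overlap other rows of the table, and how such reads were counted is not given, so that their values are uncertain. Lck, the kinase that CD4 and CD8 bind, was named after its values were seen and does not stand for the list. Against most called genes of the list, it was called higher in iWAT than in eWAT (log2 difference 1.22 ± 0.48, adjusted p = 0.0361). It had 5, 12 and 28 reads in iWAT and 1, 6 and 12 in eWAT. Of its 83 iWAT reads, 28 were in sample 5, and all eWAT libraries together held 38.

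Of 19 measured genes of B cell receptor signalling, 12 were called higher in iWAT and 6 higher in eWAT among all genes with a read (median 1.46). Against BAT, 6 were called higher in eWAT and 10 in BAT (median -0.98), and 6 were called higher in iWAT and 1 in BAT (median 0.44). Against eWAT the median turned with the filter on counts. With it, 10 genes were tested for iWAT against eWAT, of which 4 were called higher in iWAT and 6 in eWAT (median -1.32), and 10 for eWAT against BAT, of which 6 were called higher in eWAT and 4 in BAT (median 1.69). The list as a whole is therefore given no direction. Ms4a1, which encodes CD20 and overlaps another row, had 5, 24.5 and 41 reads (lowest, median and highest) in iWAT, 6, 8 and 9 in eWAT and 9, 14 and 23 in BAT. It was called higher in iWAT than in eWAT (log2 difference 1.75 ± 0.40, adjusted p = 0.00154). The 3 highest genes of the list were highest in eWAT. Cd37 was at 4.87 ± 1.07 RPKM in iWAT, 19.7 ± 3.93 in eWAT and 0.420 ± 0.0705 in BAT, and overlaps another row. Cd72 and the kinase Lyn, at 25.8 ± 4.59 and 10.7 ± 1.59 RPKM in eWAT, also overlap other rows. The part of macrophages in the levels of Cd79b and Cd4 was not tested.

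Of 18 genes of cytotoxic and NK cells, 5 were called higher in iWAT and 1 in eWAT among all genes with a read (median 1.03), 4 higher in iWAT and 0 in BAT (median 0.43), and 2 higher in eWAT and 2 in BAT (median -0.76). With the filter 3 genes were tested, and the medians turned, to -0.86 for iWAT against eWAT (1 called higher in iWAT and 2 in eWAT) and 1.88 for eWAT against BAT (2 called higher in eWAT and 1 in BAT). Tbx21, a transcription factor of these cells, was at 0.237 ± 0.0645 RPKM in iWAT, 0.0455 ± 0.0217 in eWAT and 0.238 ± 0.0694 in BAT. The chemokine Ccl5 was at 0.444 ± 0.136, 0.814 ± 0.406 and 0.0995 ± 0.0207 RPKM. The granzyme Gzma, which overlaps another row, was at 0.463 ± 0.372, 0.0877 ± 0.0442 and 0.107 ± 0.0855 RPKM. Of its 78 iWAT reads, 26 were in sample 1 and 26 in sample 5. Of 7 measured plasma cell genes, among all genes with a read, 2 were called higher in iWAT and 3 in eWAT (median -0.50). Against BAT, 5 genes of this list were called higher in iWAT and 6 in eWAT. Sdc1 (13.7 ± 4.03, 42.0 ± 7.94 and 0.378 ± 0.0638 RPKM) and Xbp1 (39.4 ± 3.15, 34.2 ± 2.85 and 10.4 ± 1.83 RPKM), which many other cells also express, were its highest genes with Ighm, which overlaps many other rows and is uncertain. List counts against BAT were not recomputed with total reads alone.

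All 8 macrophage and all 4 pan-leukocyte genes were called higher in eWAT than in iWAT among all genes with a read (medians -2.08 and -2.19). Cd68 was at 140 ± 32.8 RPKM in iWAT, 567 ± 93.3 in eWAT and 3.11 ± 0.813 in BAT, and Cd14 at 23.8 ± 7.63, 124 ± 22.9 and 1.01 ± 0.179. Laptm5 was at 42.1 ± 9.26, 196 ± 37.0 and 2.29 ± 0.745 RPKM. Of 10 dendritic cell genes, 4 were called higher in iWAT and 2 in eWAT (median 0.71). Itgax, the highest of them, was at 16.3 ± 1.59, 89.8 ± 22.4 and 0.354 ± 0.0890 RPKM. It thus ran against the median of its list and does not stand for it. Of 7 measured lymph node stroma genes, 1 was called higher in iWAT and 0 in eWAT (median 1.55), and of 4 lymphatic endothelial genes 1 was higher in iWAT and 2 in eWAT (median -0.51).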

How the data were processed

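RNA of 18 samples was sequenced on an Illumina HiSeq by the authors. The submitters' notes name cutadapt 1.16 and HISAT2 2.1.0 and the mouse genome mm9, whereas the counting program, the annotation and the treatment of reads with several matches are not given in the sources used here. The deposited tables give, per transcript row, raw read counts and RPKM values made by the authors. Depth was 26768529 to 30166441 reads in iWAT, 24655056 to 37438994 in eWAT and 27402247 to 42518483 in BAT. Of 53445 rows, 1220 symbols had several, and the row of the highest mean RPKM was kept.

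Counts were tested with edgeR 4.0.16 (quasi-likelihood, TMM, two-sided) in R 4.3.3 for each pair of tissues (6 against 6 samples), with a mean count of at least 10 and an adjusted p of at most 0.05, and again with all genes with a read. The test was checked on simulated data. Alternatives used DESeq2 1.42.0, limma 3.58.1 (log2 of RPKM + 0.1, rows with a mean of at least 0.1 RPKM), total reads alone, sequencing lane and left-out samples. Ratios and relations used exact permutation tests (scipy). Pooled ratios used effective library sizes of all 18 samples and exact 95% binomial intervals.

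Sample numbers are those of the titles, and no label says that a number is one mouse. Same-numbered samples of different tissues had correlations of their deviations from -0.233 to 0.372, with 1 of 14 pairs over 0.1. Pairs of other numbers ranged from -0.397 to 0.428, so these values cannot tell whether a number is one mouse. The numbers were not taken as pairs, and the permutation tests of ratios treated the tissues as independent groups. The study's note gives n = 6 per group, and p-values measure the spread between these samples. No libraries were duplicates (chi-square per degree of freedom at least 15.7).

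The members and lists were chosen with earlier results of these data known. Named beside the members were the 3 genes of each lymphocyte list with the highest mean RPKM, marker genes, and the 5 symbols most alike in pattern. Lck, Hba-a1 and Ptprc were named after their values were seen. Some items that these rules would name are not reported here.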

Additional observations from a re-analysis of the deposited data

Results flagged for a closer look

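Of 27 sets of 6 samples (9 genes in 3 tissues), 3 had 1 sample far from the others. The rule used was set to flag about 1 in 20 sets by chance. That rate need not hold for genes with so few reads, and the flags of Cd3g and Cd4 are both in iWAT sample 5. The 3 flags are therefore not shown to exceed chance. Cd3g in iWAT sample 5 was at 0.101 RPKM (10 reads), and the other 5 samples were between 0.0101 and 0.0310 RPKM (1 to 3 reads). Cd4 in the same sample was at 0.304 RPKM (37 reads), and the others were between 0.0817 and 0.155 RPKM (9 to 19 reads). Cd79a in eWAT sample 16 was at 0.205 RPKM (10 reads), and the others were between 0.05 and 0.101 RPKM (3 to 5 reads).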

How the results depend on the processing

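Depth limited these results, since most members had fewer than 10 reads per library. For iWAT against eWAT, 0 members were called and 5 without the filter on counts, 1 by limma (Cd79a), 0 or 1 when 1 sample was left out (1 without iWAT sample 5, namely Cd4), and 1 without iWAT samples 1 and 5. Without the filter, 3 were called without those samples, 1 within lane 1, 2 within lane 2, and 4 to 6 when 1 sample was left out. For iWAT against BAT, 0 were called and 2 with total reads alone, with or without the filter, 1 by limma (Cd79b), 1 without iWAT samples 1 and 5 with or without the filter, and 0 or 1 when 1 sample was left out. For eWAT against BAT, 1 was called, 2 with total reads alone, 8 without the filter, 3 by limma (Cd79b, Cd4 and Cd79a) and 0 with an added log2 difference of at least 1. Without the filter, 6 were called with total reads alone and 6 to 8 when 1 sample was left out.

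The difference of Cd4 between iWAT and BAT, near 0, changed sign with the replicate block (0.14), total reads alone (0.84), no filter (0.092), limma (0.32) and left-out samples (highest 0.11, lowest -0.29). That of Cd79a was 0.23 with total reads alone. With the sample number as a block the counts of called members were 0, 0 and 1, as without it, and 4 of 14 samples correlated best with their own number. The differences of the Cd4 to Cd8a and Cd79b to Cd79a ratios kept their direction and side of the threshold with a pseudocount of 0.01 RPKM. The same held without iWAT samples 1 and 5, while their size moved with the pseudocount. Summing the rows of a symbol could not change them, since each member has a single row. Of 27 mean levels, 3 moved by over 1 SD with TMM scaling. With a pseudocount of 1 RPKM, r of Cd4 and Cd79b over all 6 eWAT libraries was 0.336, beside 0.347 with 0.1 RPKM. Without the 2 libraries farthest from the median of Cd4, r was 0.862 with 0.1 RPKM and -0.623 with 1 RPKM. The pseudocount changed which 2 libraries were farthest, so these 2 values rest on different libraries. Against BAT, total reads alone moved the median log2 difference of all genes to 0.87 (iWAT) and 0.89 (eWAT), and limma on RPKM to 0.54 and 0.48. The settings without iWAT samples 1 and 5, and the repeats without the filter, were chosen after the data were seen. The causes were not tested.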
